A study of Mus musculus with 20 samples.

Results

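The comparison described here sets tdT+ against tdT− CNS-associated macrophages (CAMs) sorted from the cranial dura (dCAMs) of 5 mice injected with lipopolysaccharide (LPS). Each mouse gave 1 library of either population, so that 10 of the 20 libraries of the series enter, numbered 54, 56, 59, 60 and 61 after the mice. The genes described are the 10412 of 33243 listed genes with at least 10 counts in all 5 libraries of at least 1 population, out of 15163 that were tested. All animals of the series carried Ccr2CreERT2/+ and R26tdT/tdT, and all had been treated for 7 days with BLZ945, an inhibitor of CSF1R that depletes macrophages, at 200 mg per kg, followed by tamoxifen at 2 mg per day on the last day of BLZ945 and 2 and 4 days later. After 8 weeks the LPS mice were injected with LPS at 2.5 mg per kg and the CTL mice, 5 animals numbered 174, 175, 177, 178 and 179, with PBS. The dura was taken 12 h later. CD45int CD11b+ CD206int-high cells were sorted by the tdT reporter, a red fluorescent protein, into tdT+ and tdT− dCAMs.

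Dural macrophages sit at the outer border of the brain and combine self-maintenance with replacement from circulating monocytes. In the mice used here Cre recombinase is made under the Ccr2 locus and becomes active only with tamoxifen, so a cell that expressed the chemokine receptor Ccr2 around that time, and its progeny, carry the reporter for life. Classical monocytes express Ccr2 strongly, and so do some dendritic and lymphoid cells. A cell without the label can therefore be a macrophage that survived the depletion, but also the progeny of a cell that did not recombine or that entered the dura after tamoxifen was gone. LPS, a wall component of Gram-negative bacteria, is sensed through Tlr4 and Cd14 and drives inflammatory gene expression in macrophages.

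Both populations expressed macrophage markers, though bulk levels do not show that every sorted cell was a macrophage. The summed level of a list of 32 border macrophage markers lay between 28049 and 35519 CPM in tdT+ and between 22059 and 29510 CPM in tdT− libraries, higher in the tdT+ library of each mouse. Levels are given in CPM, reads assigned to a gene out of each 1e6 of its library after TMM scaling. Adgre1, which encodes F4/80, ranged from 1090 to 1304 CPM in tdT+ and from 786 to 1144 CPM in tdT− dCAMs, and Csf1r, the receptor that macrophages need to survive, from 1044 to 1599 and from 1043 to 1692 CPM. Neither passed the test, with log2 fold changes of 0.26 ± 0.07 and 0.06 ± 0.08 (SE, n = 5 mice). Adgre1 and Csf1r are shown as they define the cell type, and were chosen after their values were seen. Total counts per library ranged from 12073566 to 18925908 and the number of genes with at least 10 counts from 10930 to 11987, and each was higher in the tdT+ library of 2 of 5 mice. An exact two-sided permutation of signs within 5 mice cannot give a p under 0.0625, so no difference in either could have passed.

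The label itself was checked at the reporter locus. The tdTomato sequence is not among the genes listed, but Gt(ROSA)26Sor, the noncoding RNA of the Rosa26 locus into which the reporter was inserted (GRCm38, chromosome 6, 113067428 to 113077333, annotated as antisense), was measured. It reached 18.8, 21.1, 16.6, 9.98 and 14.6 CPM in the tdT+ libraries of mice 54, 56, 59, 60 and 61 and 2.46, 1.48, 2.18, 2.10 and 3.51 CPM in the tdT− libraries. The populations did not overlap, and the log2 fold change was 2.79 ± 0.35 (SE, n = 5 mice, edgeR quasi-likelihood test, adjusted p = 0.00842). Reads from an antisense gene and from the gene opposite cannot be told apart unless strand is counted.

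Fitted with the mouse as a block, 147 genes had an adjusted p under 0.05, which is 0.969% of the genes tested. Of these, 50 (0.330% of the genes tested) were higher and 97 (0.640%) lower in tdT+. The genes described hold 139 of the 147. The sides differed in size as well as in number. Genes lower in tdT+ had a median fold of 3.79 and a median level of 31.8 CPM, whereas genes higher in tdT+ had a median fold of 1.53 and a median level of 180 CPM. Scaled to total counts in place of TMM, 31 were higher and 103 lower. With a fold over 2 in addition, 85 genes (0.561%) remained, 8 higher and 77 lower. Libraries of the populations did not overlap for 63 of the 97 lower and for 17 of the 50 higher genes. Among all 10412 described genes, called or not, 281 had no overlap. Called genes were picked by a small p on these same libraries, which by itself favors separation among them. Of the lower genes, 13 met the limit of 10 counts only in the tdT− libraries and 77 met it in both populations, while all 49 higher genes described met it in both. Leaving out mouse 54, 56, 59, 60 or 61 in turn left 60, 76, 84, 84 and 58 genes called, and 39 of the 97 lower but 4 of the 50 higher genes passed in each of these 5 fits. Without the mouse as a block 43 genes passed.

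Most abundant genes had narrow intervals. Among the 1819 described genes with a mean over 100 CPM, the 95% interval of the log2 fold change lay between −1 and 1 for 1786 (98.2%), and 53 passed the test. The share was 68.8% over all described genes. The 5 most abundant described genes, Fth1, Saa3, Cd74, B2m and Apoe, had log2 fold changes between −0.22 and 0.25 and none passed the test.

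**Figure D1:**
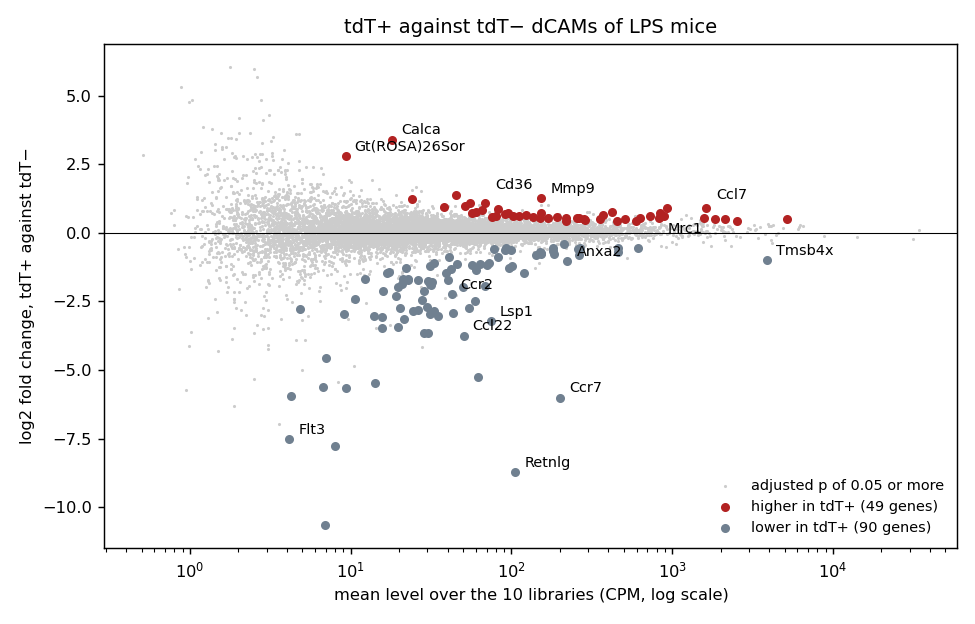
Log2 fold change of tdT+ against tdT− dCAMs (y axis) against the mean level over the 10 libraries in CPM (x axis, log scale) for the 10412 described genes of LPS mice. The 90 described genes lower in tdT+ (dark gray) spread down to a log2 fold change of −10.66, while the 49 higher genes (red) lie mostly under 1 and at higher levels.

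Genes of monocytes were examined first, since the label was driven from the Ccr2 locus. Of 32 monocyte-associated genes, 5 were lower and 0 higher in tdT+ dCAMs, with a median log2 fold change of −0.52 (0.04 over all genes tested). In all 5 mice 10 were lower, where 5.14% of all genes tested were. Ccr2 (chromosome 9, 124101950 to 124113557) measured 21, 10.7, 13.6, 22.2 and 9.54 CPM in tdT+ and 89.8, 54.7, 68.5, 73.7 and 61.0 CPM in tdT− libraries of mice 54, 56, 59, 60 and 61. All tdT− libraries lay above all tdT+ libraries. The log2 fold change was −2.23 ± 0.16 (SE, n = 5 mice, edgeR, adjusted p = 5.58e-04). The other 4 were Ly6c2, a surface antigen of classical monocytes, at 5.40 ± 2.72 CPM in tdT+ and 35.1 ± 10.5 CPM in tdT− (SD, n = 5), the aspartic protease Napsa, at 3.34 ± 1.60 and 36.0 ± 17.6 CPM, the integrin subunit Itga4, which mediates adhesion to Vcam1, at 13.6 ± 2.84 and 50.1 ± 23.1 CPM, and the signal regulatory protein Sirpb1c, at 5.87 ± 3.46 and 18.8 ± 12.0 CPM. Ly6c2, Napsa and Itga4 did not overlap between populations, and Sirpb1c did. Itga4 and Sirpb1c lost their call in 4 of the 5 fits that left out 1 mouse. The most abundant monocyte-associated genes did not pass, among them Ifitm3 with a log2 fold change of 0.12 ± 0.07 and Thbs1 with −0.50 ± 0.11 (SE, n = 5 mice).

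The genes lower in tdT+ with the largest folds included several that dendritic cells switch on when they mature and migrate. Dendritic cells take up antigen in tissues and carry it to lymph nodes, guided by the receptor Ccr7. Ccr7 (chromosome 11, 99144196 to 99155077) measured 9.67, 1.46, 6.80, 1.46 and 16.2 CPM in tdT+ and 584, 298, 219, 357 and 509 CPM in tdT− libraries of mice 54, 56, 59, 60 and 61. The lowest tdT− library lay far above the highest tdT+ library, and the log2 fold change was −6.02 ± 0.37 (SE, n = 5 mice, edgeR, adjusted p = 4.04e-04), the smallest together with Lsp1. Ccl22 and Ccl17, chemokines of mature dendritic cells that lie next to each other on chromosome 8, were both lower. Ccl22 was at 7.35 ± 4.29 CPM in tdT+ and 93.4 ± 31.5 CPM in tdT− (SD, n = 5), and Ccl17 at 1.86 to 7.63 CPM and 26.8 to 53.3 CPM. Fscn1, the actin bundler of dendrites, had a log2 fold change of −2.75 ± 0.34. Flt3, the growth factor receptor of dendritic cell progenitors, was at or under the floor of 3 counts in every tdT+ library and at 3.99 to 20.2 CPM in tdT−, at least 38.6-fold lower. Flt3 lost its call when mouse 54 or mouse 56 was left out.

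Of 18 tested members of a list of dendritic cell markers, 5 were lower and 0 higher, with a median log2 fold change of −1.45 (0.04 over all genes tested). Their summed level was 399 to 628 CPM in tdT+ and 912 to 1468 CPM in tdT− libraries, without overlap. Ccr7 alone averaged 7.12 and 393 CPM, against 543 and 1132 CPM for the sum. Irf8, Tcf4 and Mgl2, the most abundant members that did not pass, had log2 fold changes of 0.18, 0.28 and 0.44. Another list, of 20 genes of migratory dendritic cells written after the values had been seen and therefore no independent evidence, had 10 of 18 tested members lower and 0 higher. Its further members that passed were Cacnb3, a calcium channel subunit, Cd200, an inhibitory ligand of myeloid cells, the Rab GTPase activator Tbc1d4, the zinc finger protein Zfp366 and the maturation marker Cd83. Cacnb3 measured 0 to 1.54 CPM in tdT+ and 10.5 to 38.4 CPM in tdT−. Zfp366 had no count in any tdT+ library and 2.34 to 31.8 CPM in tdT− libraries, at least 64.2-fold lower. Tbc1d4, Zfp366 and Cd83 were named outside the rule for genes. Cd83 lost its call in each of the 5 fits that left out 1 mouse. The list was not uniform. Marcksl1 had a log2 fold change of 0.19 and Cd40 of −0.02.

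Among the listed markers of granulocytes, single genes were lower in tdT+. Called genes outside these lists are not covered here. Retnlg, a secreted protein of neutrophils, was at 0, 0, 0.481, 0 and 1.01 CPM in tdT+ and at 626, 283, 63.9, 22.8 and 61.2 CPM in tdT− libraries of mice 54, 56, 59, 60 and 61 (log2 fold change −8.73 ± 0.93, SE, n = 5 mice, edgeR, adjusted p = 9.34e-04). The populations did not overlap, and the tdT− libraries of mice 54 and 56 held several times more than the other 3. The labels mark mice 54 and 56 with F and mice 59, 60 and 61 with M. Xist, the RNA that coats the inactive X chromosome of females, was at 35.0 to 67.2 CPM in the libraries of mice 54 and 56 and at most 0.0768 CPM in the others, and the Y-linked Ddx3y was at 0 CPM in the former and at 75.3 to 133 CPM in the latter (both named outside the rule). A difference of mice 54 and 56 from the other 3 can therefore not be told apart from one of females from males. Of the 11 neutrophil markers tested, 1 was lower and 1 higher, with a median log2 fold change of 0.06 (0.04 over all genes tested). S100a8, an alarmin that inflamed macrophages also express, had a log2 fold change of 0.14 ± 0.19, and Mmp9, a gelatinase of neutrophils and activated macrophages, was higher in tdT+, at 217 ± 121 against 89.9 ± 46.7 CPM (SD, n = 5). Mmp9 lost its call in 4 of the 5 fits that left out 1 mouse. The summed level of the list was 503 to 1160 CPM in tdT+ and 459 to 1118 CPM in tdT−. Some eosinophil genes were lower as well. Ccr3, the eotaxin receptor of eosinophils, had at most 3 counts in 4 of 5 tdT+ libraries and 75.4, 31.1, 1.82, 0 and 8.70 CPM in tdT− libraries. It was called (log2 fold change −7.13 ± 1.14, adjusted p = 0.0263) but is not among the genes described, since tdT− libraries fell under 10 counts. Of 8 tested eosinophil genes of a list written after the values had been seen, 3 were lower, namely Ccr3, the inhibitory lectin Siglecf and the lipoxygenase Alox15, and the summed level was 9.29 to 27.4 CPM in tdT+ and 50.9 to 267 CPM in tdT− libraries. Hdc, a member that did not pass, held 18.7 of the mean sum of 19.7 CPM in tdT+ and 50.5 of 128 CPM in tdT−. Siglecf measured 53.1, 21, 3.45, 1.53 and 11.6 CPM in tdT− libraries of mice 54, 56, 59, 60 and 61 and 0 to 2.45 CPM in tdT+. Siglecf kept its call when any 1 mouse was left out. Ccr3 and Alox15 lost theirs without mouse 54 or mouse 56, and Ccr3 also without mouse 59.

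The remaining cell type lists are given by their summed levels. Markers of T and NK cells summed to 12.8 to 56.6 CPM in tdT+ and 66.7 to 223 CPM in tdT−. Il7r, a receptor of lymphoid cells that dendritic cells can also express, was the member that passed, at 28.6 ± 16.0 and 108 ± 66.3 CPM, whereas Cd3e averaged 1.01 and 1.34 CPM. Mast cell markers summed to 0 to 41.0 CPM in tdT+ and 2.05 to 159 CPM in tdT−, B cell markers to 46.0 to 69.1 and 37.0 to 80.2 CPM, endothelial markers to 6.85 to 20.5 and 11.4 to 65.7 CPM, fibroblast markers to 172 to 475 and 98.2 to 502 CPM, microglia markers to 573 to 898 and 612 to 797 CPM, and erythroid markers to 0 to 30.8 and 0 to 33.3 CPM, with 0 members called in each. Pecam1 held 11.3 of the mean endothelial sum of 13.5 CPM in tdT+ and 25.3 of 30.4 CPM in tdT−. Of the lists of other cell types, the dendritic cell, migratory dendritic cell, eosinophil, T and NK cell and endothelial sums were lower in the tdT+ library of all 5 mice. Their part in the differences between the populations was not tested, and in bulk libraries fewer cells of a type and less RNA per cell cannot be told apart. Without both mouse 54 and mouse 56, a choice made after the values were seen that leaves 3 males, 33 genes passed, 5 higher and 28 lower. Ccr7, Ccl17, Ccl22, Lsp1, Tmsb4x, Ccr2, Retnlg, Ccl2 and Ccl7 were among them, with log2 fold changes of −5.68, −3.30, −3.81, −3.10, −0.93, −2.25, −6.75, 0.86 and 0.97. The members called were then 3 dendritic cell markers, 6 genes of migratory dendritic cells, 2 monocyte-associated genes, 4 actin, S100 and annexin genes, 4 chemokines and 0 eosinophil, class II or border macrophage genes. With 3 mice left, several genes that lost their call had folds about as large as with 5. The log2 fold change was −7.75 for Siglecf (−5.66 with 5 mice), −1.08 for Ifi30 (−1.09), −1.04 for H2-DMb1 (−1.15), −0.62 for H2-DMa (−0.58) and 0.58 for Mrc1 (0.71).

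**Figure D2:**
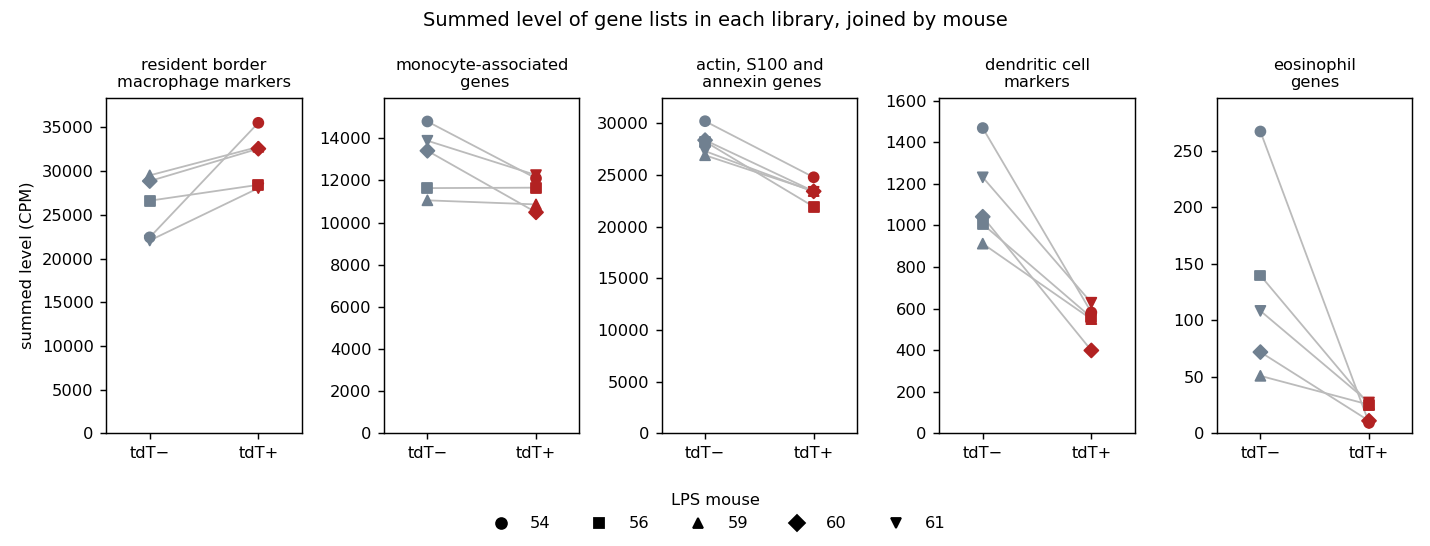
Summed level in CPM (y axis, from 0) of 5 gene lists in the tdT− and tdT+ library of each LPS mouse, 1 symbol per mouse, joined within the mouse. Dendritic cell markers and eosinophil genes lie without overlap between the populations, while border macrophage markers are higher in the tdT+ library of each mouse. The eosinophil list was written after the values had been seen, and single genes can hold much of a sum.

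Genes of the actin cytoskeleton, together with S100 and annexin genes, formed another group of lower genes, some of them abundant. Of 51 members, 8 were lower and 0 higher in tdT+ dCAMs, the median log2 fold change was −0.20 (0.04 over all genes tested), and 25 were lower in all 5 mice, where 5.14% of all genes tested were. The sum of the list was 21929 to 24777 CPM in tdT+ and 26905 to 30202 CPM in tdT−, again without overlap. Lsp1, an actin-binding protein of leukocytes (chromosome 7, 142460809 to 142494867), measured 15.8, 10.5, 24.2, 9.14 and 14.4 CPM in tdT+ and 185, 98.8, 111, 121 and 152 CPM in tdT− libraries of mice 54, 56, 59, 60 and 61. The lowest tdT− library lay above the highest tdT+ library, and the log2 fold change was −3.22 ± 0.20 (SE, n = 5 mice, edgeR, adjusted p = 4.04e-04). Tmsb4x, thymosin beta 4, which holds actin monomers (chromosome X, 167207093 to 167209315), measured 3032, 2290, 2619, 2934 and 2017 CPM in tdT+ and 7051, 4627, 4137, 5716 and 4493 CPM in tdT− libraries. It was the most abundant of the genes lower in tdT+, and its log2 fold change was −1.0 ± 0.08 (adjusted p = 8.26e-04). Tmsb4x averaged 2578 and 5205 CPM, against 23387 and 28202 CPM for the sum of the list. Its relative Tmsb10 had a log2 fold change of −1.11 ± 0.20 and lost its call in each of the 5 fits that left out 1 mouse. Tmsb10 also lost its call with a trend on length and GC content removed.

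The calcium-binding proteins S100a6 and S100a11 were both lower, at 7.78 ± 2.51 and 57.4 CPM in tdT+ and 51.9 ± 22.9 and 107 CPM in tdT−. S100a6 kept its call when any 1 mouse was left out. S100a11 lost it in 3 of these fits, and also with a trend on length and GC content removed. The LIM protein Crip1, at 15.3 to 23.6 and 31.4 to 94.2 CPM, and the membrane-binding annexin Anxa2, at 144 ± 21.8 and 301 ± 84.5 CPM (SD, n = 5), were lower as well. Coro1a, a coronin of leukocytes, had a log2 fold change of −0.56 ± 0.08 and overlapped between the populations. The core of the cytoskeleton did not pass the test. Actb, Pfn1, Cfl1 and Msn had log2 fold changes of −0.18, −0.10, 0.01 and 0.04.

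Receptors for chemoattractants and adhesion had 6 of 35 members lower and 0 higher. Apart from Ccr2, Ccr3, Ccr7 and Itga4 these were Itgb7, the beta subunit that pairs with Itga4, at 5.78 ± 1.05 CPM in tdT+ and 26.2 ± 9.61 CPM in tdT−, and Selplg, the selectin ligand on leukocytes, at 114 ± 17.7 and 190 ± 32.7 CPM (SD, n = 5). The receptors of bacterial peptide and complement fragments were not lower. Fpr1 had a log2 fold change of 0.49 and C5ar1 of 0.33, and neither passed.

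Antigen presentation differed in part. Among 13 class II genes tested, 3 were lower and 0 higher, with a median log2 fold change of −0.32 (0.04 over all genes tested). These were the subunits of the peptide exchange factor, H2-DMb1 (28.6 ± 8.55 CPM in tdT+ and 63.6 ± 16.0 CPM in tdT−, SD, n = 5) and H2-DMa (log2 fold change −0.58 ± 0.10), and the lysosomal thiol reductase Ifi30 (46.0 ± 12.8 and 98.0 ± 28.0 CPM). H2-DMa lost its call in each of the 5 fits that left out 1 mouse. The class II molecules themselves, H2-Aa and H2-Ab1, both had log2 fold changes of −0.26, and the invariant chain Cd74 had −0.15, all short of the threshold. In class I presentation 0 of 19 genes passed and all 19 intervals lay between −1 and 1.

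**Figure D3:**
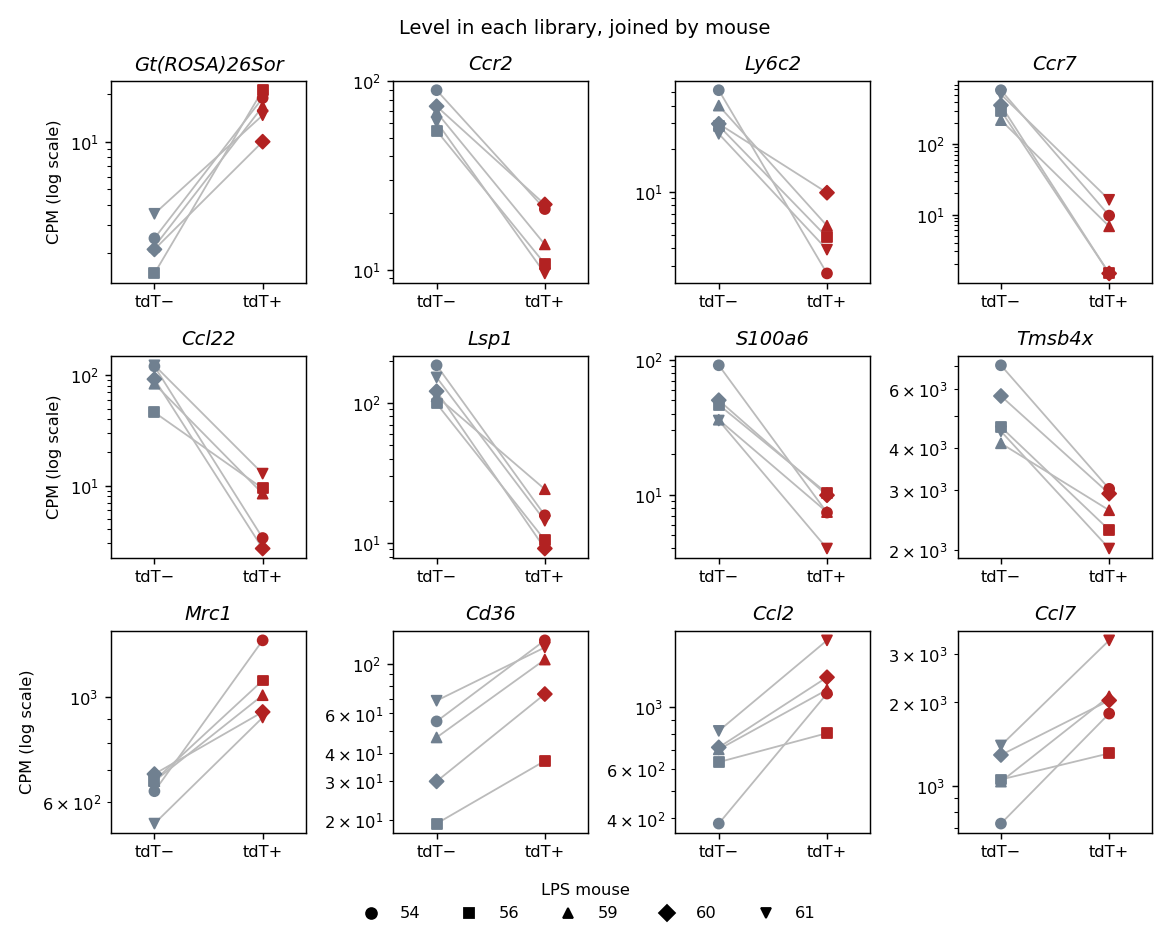
Level in CPM (y axis, log scale, a separate range for each gene) of 12 genes in the tdT− (gray) and tdT+ (red) library of each LPS mouse, joined within the mouse. Gt(ROSA)26Sor, Mrc1, Cd36, Ccl2 and Ccl7 are higher and the other 7 lower in tdT+ in all 5 mice.

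Other genes with a small p and a fold over 2 that were lower in tdT+ were Fabp5, a fatty acid binding protein (10.1 ± 3.56 and 75.8 ± 24.2 CPM, SD, n = 5), B3gnt5, a glycosyltransferase of glycolipid synthesis (5.92 ± 3.27 and 42.5 ± 20.5 CPM), the secreted protease Htra1 (63.2 ± 8.13 and 176 ± 27.8 CPM), Cytip, which binds cytohesins and is found in activated dendritic and T cells (57.5 ± 29.8 and 135 ± 54.6 CPM), and the histone variant H2az1 (39.4 ± 5.81 and 87.9 ± 20.7 CPM). All 5 were lower in each mouse, and only Cytip overlapped between the populations. The decoy receptor of interleukin 1, Il1r2, was also lower, at 60.2 ± 14.9 and 141 ± 36.5 CPM.

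The genes higher in tdT+ dCAMs included markers of resident macrophages. Of 32 border macrophage markers, 4 were called higher and 1 lower, with a median log2 fold change of 0.27. In all 5 mice 11 were higher and 2 lower, where 6.21% and 5.14% of all genes tested were. Mrc1 (chromosome 2, 14229392 to 14332057) encodes CD206, the protein on which both populations were gated. It measured 1318, 1084, 1009, 930 and 905 CPM in tdT+ and 633, 666, 664, 688 and 541 CPM in tdT− libraries of mice 54, 56, 59, 60 and 61, without overlap. The log2 fold change was 0.71 ± 0.09 (SE, n = 5 mice, edgeR, adjusted p = 0.00682). The chemokine Pf4, the carbonyl reductase Cbr2 and the coagulation factor F13a1 had log2 fold changes of 0.49 ± 0.09, 0.64 ± 0.12 and 0.44 ± 0.09, each higher in 5 of 5 mice. The lectin Clec12a was the member called lower, with −0.63 ± 0.12. F13a1 lost its call in each of the 5 fits that left out 1 mouse, and Pf4, Cbr2 and Clec12a in 4 of them. Mrc1 kept its call in all 5. F13a1 also lost its call with a trend on length and GC content removed. Apoe, Lyz2, C1qb and C1qc, with log2 fold changes of 0.23 to 0.28, did not pass. Nor did Lyve1 and Cd163, named outside the rule, at 1.53 ± 0.57 and 0.74 ± 0.17. Timd4 and Cx3cr1, also outside the rule, went the other way with −3.10 and −2.16 and did not pass. Timd4 averaged 1.93 CPM in tdT+ and 21.7 CPM in tdT−, and Cx3cr1 1.56 and 6.22 CPM. Cd36, the scavenger receptor for oxidized lipids and a member of the lysosomal and scavenger list, reached 128, 36.7, 105, 73.3 and 119 CPM in tdT+ and 55.3, 19.2, 46.8, 29.7 and 68.5 CPM in tdT− libraries. The ranges overlap because the mice differed, yet every mouse had the higher value in tdT+ (log2 fold change 1.08 ± 0.12, adjusted p = 0.00308). None of the other 38 scavenger and lysosomal genes tested passed.

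Chemokines differed in both directions. Of 26 tested, 5 were higher and 2, Ccl17 and Ccl22, lower in tdT+. Ccl2 and Ccl7, neighbors on chromosome 11 (82035571 to 82037453 and 82045712 to 82047525) that attract monocytes through Ccr2, were both higher. Ccl2 measured 1115, 806, 1150, 1274 and 1725 CPM in tdT+ and 384, 635, 705, 717 and 821 CPM in tdT− libraries, a log2 fold change of 0.90 ± 0.14 (SE, n = 5 mice, edgeR, adjusted p = 0.0190). Ccl7 measured 1823, 1308, 2105, 2034 and 3358 CPM in tdT+ and 728, 1052, 1033, 1291 and 1397 CPM in tdT− libraries, with 0.92 ± 0.13 (adjusted p = 0.0133). Ccl2 did not pass without mouse 59, 60 or 61, and Ccl7 without 59 or 61. In both genes every mouse had the higher value in tdT+, and the ranges overlapped by the tdT+ library of mouse 56. Ccl24, which attracts eosinophils through Ccr3, had a log2 fold change of 1.37 ± 0.24, Ccl3 of 0.54 ± 0.10, and Pf4 is given above. Ccl24 and Ccl3 lost their call in each of the 5 fits that left out 1 mouse. Ccl4, Cxcl2 and Cxcl13 did not pass, with log2 fold changes of 0.45, 0.24 and 0.23, and neither did Ccl5, with −0.39.

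The list of immediate early and heat shock genes had 3 of 29 members called higher and 0 lower. In all 5 mice 14 were higher, where 6.21% of all genes tested were. Heat shock genes such as Hspa8, Dnajb1 and Hsph1 are among the 14 and did not pass. Egr1 (log2 fold change 0.50 ± 0.09), Jun (0.60 ± 0.12) and Ier3 (0.45 ± 0.08) passed, and Fos (0.27), Junb (−0.06) and Nr4a1 (0.27) did not. Egr1, Jun and Ier3 lost their call in each of the 5 fits that left out 1 mouse. With a trend on length and GC content removed, Egr1 and Jun lost it as well.  Among 34 genes of LPS recognition and signaling, Nfkbiz, an inducible cofactor of NF-kB, was the gene that passed (0.49 ± 0.09), and 33 of the 34 intervals lay between −1 and 1. Nfkbiz lost its call in each of the 5 fits that left out 1 mouse.

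Lists of inflammatory genes without a call followed. In acute phase and LPS effector genes 0 of 38 passed. Saa3, the acute phase protein, ranged from 27215 to 31252 CPM in tdT+ and from 24828 to 42664 CPM in tdT−, and Lcn2 had a log2 fold change of 0.21. In cytokines 0 of 27 passed, Il1b among them (log2 fold change −0.49 ± 0.10, adjusted p = 0.0501, lower in 5 of 5 mice). In type I interferon stimulated genes 0 of 42 passed, the median log2 fold change was 0.02, and 40 of 42 intervals lay between −1 and 1. In Fc and complement genes 0 of 24 passed. The cell cycle list had 0 of 29 called as well, as did the 83 ribosomal protein genes and the 84 respiratory chain subunits tested. Of the respiratory chain subunits 30 were lower and 0 higher in all 5 mice, where 5.14% and 6.21% of all genes tested were. Their median log2 fold change was −0.22, and 76 of 84 intervals lay between −1 and 1.

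**Figure D4:**
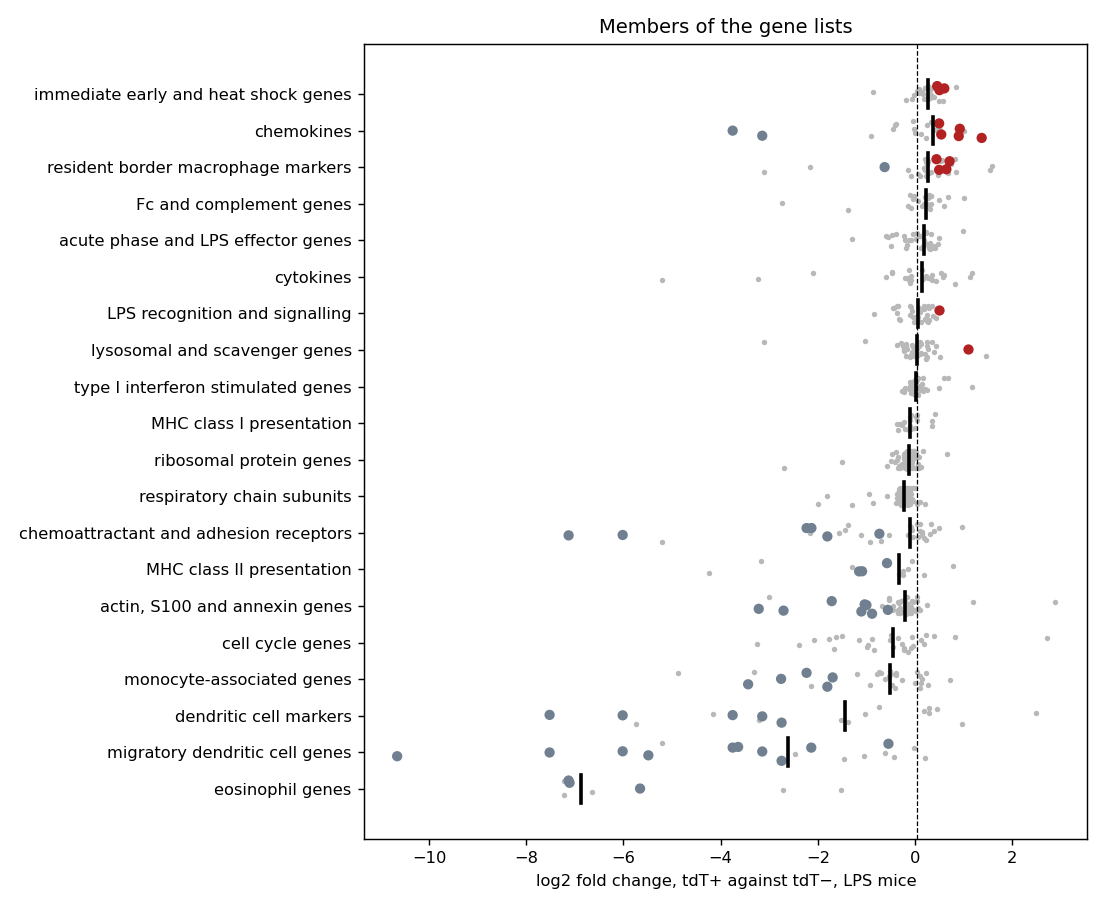
Log2 fold change of tdT+ against tdT− dCAMs of LPS mice (x axis) for the members of 20 gene lists (y axis). Colored points passed the test (red higher, dark gray lower), small gray points did not, black bars are medians and the dashed line is the median of all genes tested, 0.04. The dendritic cell and eosinophil lists have medians of −1.45 or lower, and the interferon, class I and LPS signaling lists lie close to 0.

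Outside the lists, Calca, which encodes calcitonin and the peptide CGRP, had the largest fold of the described genes higher in tdT+. It measured 33.2, 45.6, 43.4, 26.4 and 13.3 CPM in tdT+ and 3.76, 3.03, 1.21, 9.91 and 1.20 CPM in tdT− libraries of mice 54, 56, 59, 60 and 61, without overlap (log2 fold change 3.38 ± 0.43, SE, n = 5 mice, edgeR, adjusted p = 0.0101). The flavin monooxygenase Fmo1 and Npl, an enzyme of sialic acid breakdown, were higher by log2 fold changes of 1.09 ± 0.20 and 1.22 ± 0.23. Genes named outside the rule were the NAD hydrolase Cd38, at 6117 ± 544 and 4304 ± 440 CPM (SD, n = 5), the selenium transporter Selenop, with a log2 fold change of 0.54, and the RNA sensors Tlr8 and Tlr3, with 0.56 and 0.96. Npl, Selenop and Tlr8 lost their call in each of the 5 fits that left out 1 mouse, Fmo1 and Tlr3 in 4, Cd38 in 3 and Calca in 1. Il17f, also named outside the rule, had the largest fitted fold of the genes called higher in tdT+ and rests on few mice. It had counts in the tdT+ libraries of mice 54, 59 and 61 (0.372, 9.34 and 54.8 CPM) and in no other library, and is not among the genes described.

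Transcripts of genes higher in tdT+ were somewhat longer and those of lower genes shorter than usual. The median longest transcript was 3723 bases for the higher genes, 2636 for the lower genes and 3168 over all genes tested, with 98.0%, 99.0% and 95.8% matched to the annotation. With a trend on length and GC content removed, 31 of the 50 higher and 93 of the 97 lower genes were called in the same direction.

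The same comparison was made in CTL mice to see whether the differences were present without LPS. There, tdT− libraries had 6671 to 9365 genes with at least 10 counts and tdT+ libraries 10024 to 11032, and the common biological coefficient of variation was 1.30, against 0.509 in LPS mice. In that fit 3 of 14405 genes passed (0.0208%). They were Csf1r and F13a1, higher in tdT+ with log2 fold changes of 1.20 and 1.19, and Cd209a, a lectin of monocyte-derived dendritic cells, lower with −4.61. Csf1r and Cd209a are named outside the rule. At an unadjusted p under 0.05 there were 1098 genes. The count depended on the fit. With other scalings, the stricter filter or the length and GC trend 0 genes passed, and 0 or 1 when a CTL mouse was left out, whereas 170 passed with voom, 778 with all libraries and 2143 with DESeq2.

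The median log2 fold change over all genes tested in CTL mice was 0.76, against 0.04 in LPS mice, so counts are given against that median and against 0. The median is not a baseline for each gene. In CTL mice the lists had medians of −0.98 for ribosomal protein genes, −0.63 for respiratory chain subunits, −0.23 for class I genes and 0.39 for border macrophage markers. Of the genes lower in tdT+ under LPS, 91 were tested in CTL mice, and 76 lay below the CTL median and 71 below 0. Of the genes higher under LPS, 49 were tested, and 31 lay above the CTL median and 42 above 0. Over all genes tested in both, 31.3% lay below 0. Ccr2 had a log2 fold change of −1.19 ± 0.28 in CTL mice, at 283 CPM in tdT+ and 623 CPM in tdT−, and Lsp1 of −2.14 ± 0.27, at 140 and 638 CPM, both lower in 5 of 5 mice but with adjusted p = 0.558 and adjusted p = 0.0812 by edgeR. The chemokines Ccl2 and Ccl7 had −0.55 and −0.18. The differences between the treatments for these 4 genes were −1.05, −1.08, 1.45 and 1.10 on the log2 scale and did not pass (adjusted p = 0.257, 0.261, 0.0541 and 0.210, edgeR, n = 5 mice per treatment).

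A difference between treatments passed for 84 of 16632 genes (0.505%), 11 with a more positive effect in LPS mice and 73 with a more negative one. These calls needed all 5 LPS mice, since 0 genes passed when any of them was left out (edgeR, 1338 to 1418 at an unadjusted p under 0.05), and 3 passed with the length and GC trend removed. With all mice 149 passed with voom and 2084 with DESeq2. Of the 73, 70 did not exceed 3 counts in 3 or more of the tdT− libraries from CTL mice. Of the genes called in LPS mice, 0 of the 50 higher and 4 of the 97 lower ones passed, namely Il1r2, Chst15, Sdc1 and Tmem154, of which the last 3 are named outside the rule. In CTL mice Il1r2 had at most 3 counts in all 5 tdT+ libraries, Sdc1 and Tmem154 in all 5 tdT− libraries and Chst15 in 4 of 5 tdT− libraries. Samsn1, an adaptor that restrains B cell activation, and Tnfsf9, the ligand of 4-1BB, differed with counts in all groups. Samsn1 was at 434 and 442 CPM in tdT+ and tdT− dCAMs of LPS mice and at 14.4 and 138 CPM in those of CTL mice, a difference of 3.33 ± 0.35 on the log2 scale (SE, n = 5 mice per treatment, edgeR, adjusted p = 0.0114). Tnfsf9 was at 94.8 and 109 CPM under LPS and at 59.2 and 579 CPM in CTL mice (2.90 ± 0.47, adjusted p = 0.0401). Srgn and Cdkn1a went the same way, by 1.33 and 1.32. Under LPS the log2 fold changes of these 4 genes lay between −0.22 and 0.01.

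**Figure D5:**
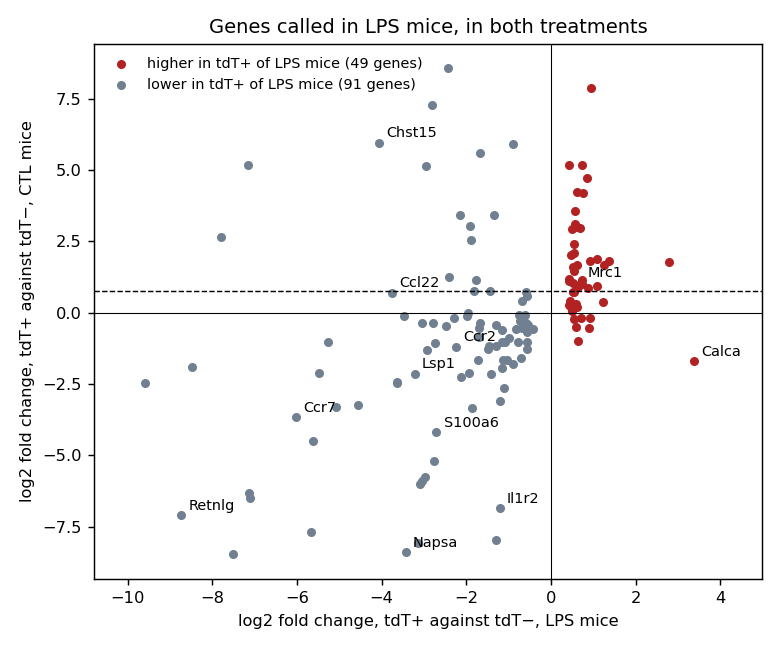
Log2 fold change of tdT+ against tdT− dCAMs in CTL mice (y axis) against LPS mice (x axis) for the 140 genes called in LPS mice and tested in both. The dashed line is the CTL median of all genes, 0.76, which is not a baseline for each gene. Of the genes lower under LPS, 76 of 91 lie below that line, and of the higher genes 31 of 49 lie above it.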

How the data were processed

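Bulk RNA sequencing libraries of sorted dCAMs were amplified by PCR and carry no molecular identifiers, and floors therefore cover counting error only. Per the labels, the authors used bcl2fastq 2.20, aligned reads with STAR 2.7.11a and counted them per gene with featureCounts 2.0.6, and DESeq2 1.46.0 served their own comparisons. The deposited table holds raw counts, and all values are whole numbers. The methods name more than one genome build, and which of them underlies the table is not given in the sources used here. Coordinates and transcript lengths come from GENCODE M21 (GRCm38), matched by symbol, and only locate a gene.

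Groups were taken from the labels. Counts of the 10 LPS libraries were scaled by TMM and fitted with edgeR 4.0.16 (R 4.3.3, quasi-likelihood test) on population and mouse, over the 15163 genes with a total of at least 10 counts. A gene was called with a Benjamini-Hochberg adjusted p under 0.05. The CTL libraries were fitted likewise, and the difference between treatments on all 20 libraries with mouse as a block. Both libraries of a mouse came from the same dura, which pairs them. Deviations from the group means correlated within a mouse with r of 0.194 to 0.415 in LPS mice and −0.00824 to 0.0458 in CTL mice. In LPS mice the highest r with another mouse was 0.0240 to 0.172, under the value of the same mouse each time. In CTL mice 178 and 179 it was 0.0206 and 0.0790, above the value of the same mouse. Alternatives were fits without the block or jointly on all libraries, DESeq2 1.42.0, limma-voom (limma 3.58.1) with quality weights, other scalings and filters, a length and GC trend, and leaving out mice. The edgeR script was tested on simulated data.

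Genes named are, per direction, the 15 described genes with the smallest p and the 5 with the highest level. Both have a fold over 2 and the same sign in all 5 mice. Also named are the members of gene lists that passed, up to 4 abundant others per list, Ccr2 and the 5 most abundant genes. For the difference between treatments they are the 5 with the smallest p among genes with a more positive effect in LPS mice. The rule also picked up to 5 genes with a more negative effect, but those are not described here. The members and lists were chosen with earlier results of these data known. Where no separate cultures or litters are stated, p-values measure the spread between these mice.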

Additional observations from a re-analysis of the deposited data

Results flagged for a closer look

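The effect of the label differed between LPS and CTL mice for 10 of the genes named here (edgeR, interaction of population and treatment, n = 5 mice per treatment). The differences in log2 fold change, LPS minus CTL, were 3.33 for Samsn1 (adjusted p = 0.0114), 3.86 for Cd209a (adjusted p = 0.0478), 2.90 for Tnfsf9, 1.33 for Srgn, 1.32 for Cdkn1a, −1.14 for Csf1r and 8.25 for Il1r2 (adjusted p = 0.0401 for each of these 5). They were −10.50 for Chst15 (adjusted p = 0.0482), −11.71 for Sdc1 (0.0401) and −11.23 for Tmem154 (0.0478), 3 genes at or near 0 in tdT− CTL libraries. Each of the 10 needed all LPS mice: fitted on 4 of them, 0 genes reached the threshold (edgeR, 1338 to 1418 at an unadjusted p under 0.05), and with the length and GC trend removed 3 of all genes passed.

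In 15 of 222 sets of 5 libraries, 1 library stood far from the others of its group on the log2 scale, where chance gives about 1 in 20. Among tdT− libraries, mouse 54 was highest for Itgb7 (42.9 CPM, next 24.3) and Napsa (67.3, next 30.1) and lowest for Irf8 (183, next 236). Mouse 61 was lowest for Lyve1 (0.399 CPM, next 11.4) and Npl (4.31, next 15.1), and mouse 60 for Nfkbiz (258, next 431). Among tdT+ libraries, mouse 60 was also lowest for Nfkbiz (428 CPM, next 598) and highest for H2-DMb1 (43.6, next 26.5). Mouse 61 was highest for Irf8 (347 CPM, next 252), mouse 54 highest for Lyve1 (99.3, next 27.4) and lowest for Tbc1d4 (7.06, next 10.2), and mouse 59 highest for Selenop (865, next 723). Alox15, Ccr3 and Flt3 stood out through the single tdT+ library with any count, at 0.673, 0.561 and 0.206 CPM.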

How the results depend on the processing

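Of the alternatives to the 147 genes called in LPS mice, scaling by DESeq2 size factors or total counts, the stricter filter, voom and the length and GC trend gave 134 to 202. The others moved the count more. Without the replicate block 43 genes passed, with group means over all 20 libraries 5, with DESeq2 559, and without a filter 248. Of these counts 42, 5, 143 and 147 genes were called in the same direction as in the reported fit. With a fold over 2, where 85 genes passed, the counts were 39, 5 and 264 in the same order, with no move past 1.5 times for the filter. Leaving out mice gave 58 to 84 genes, or 46 to 69 with the fold limit, and 33 and 24 without both mice 54 and 56, a choice made after seeing the data. No named gene that was called changed sign under any alternative, and of 2932 values for named genes 375 lost and 45 gained the threshold. The causes were not tested.

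In CTL mice, where 3 genes were called, the counts were 8 without the replicate block, 778 with all libraries, 2143 with DESeq2, 170 with voom, 17 without a filter and 0 with either other scaling, the stricter filter or the length and GC trend (edgeR, 997 to 1169 genes at an unadjusted p under 0.05), and 0 to 1 when a CTL mouse was left out (642 to 1031 at that p). For the difference between treatments, where 84 were called, they were 210 without the replicate block, 2084 with DESeq2, 149 with voom, 243 under the stricter filter and 3 with the length and GC trend. They were 0 without any 1 LPS mouse (1338 to 1418 genes at an unadjusted p under 0.05), and 96 to 456 without a CTL mouse. Counts of 3 or fewer in tdT− CTL libraries limit that comparison.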
